A study of Mus musculus with 2 samples.

Results

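Trp53, the gene for the transcription factor p53, and the genes named as its partners were followed in nephron progenitor cells with and without p53. The set holds the protein-coding genes of the deposited table whose symbols begin with Trp53, together with Mdm2 and Mdm4 where listed. It came to 8 genes of 9388 protein-coding rows: Trp53, Mdm4, Trp53bp1, Trp53bp2, Trp53i11, Trp53i13, Trp53inp1 and Trp53inp2. The current annotation holds 12 protein-coding genes under the same names, and Mdm2, Trp53rka, Trp53rkb and Trp53tg5 were not analysed here. The table holds only rows with a corrected p-value under 0.05 in the authors' comparison, so members and the genes they are compared with share that selection.

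Nephron progenitors are the cap mesenchyme cells of the embryonic kidney that either renew themselves or form the epithelium of the nephron. They were isolated by flow sorting from kidneys of mouse embryos of embryonic day 15.5, bred on a mixed CD1 and C57BL background. The wild-type group (WT, Six2CreGFP+;p53+/+) and the knockout group (KO, Six2CreGFP+;p53f/f) both carried a Six2 transgene that makes Cre recombinase and GFP, so the control cells express Cre too. In KO, Cre deletes the floxed p53 alleles where Six2 drives it, and cells that never made Cre keep them. The labels do not say which exons are flanked by lox sites or how many embryos were pooled. Each group had 1 library, so no difference below has a replicate check and none was tested.

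In cells without damage, p53 protein is kept scarce. Mdm2, a ubiquitin ligase, marks it for destruction, and its relative Mdm4 covers the part of p53 that activates transcription. Stress signals release p53, which then switches on genes of cell cycle arrest, repair and death. In the developing kidney, nephron progenitors are known to need Mdm2, because unrestrained p53 depletes them.

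Trp53 was the only member that differed by more than 1.5-fold. Its density was 33.9 RPKM (reads per unit of exon length and of sequencing depth) in WT against 5.38 RPKM in KO. The KO library held 15.8% of the WT density (95% exact interval 15.1% to 16.6%, counting error only), about 12515 and 1862 reads. On the log2(RPKM + 1) scale, which was used for all differences, Trp53 differed by -2.45. Only 7 of the 9388 protein-coding rows had a lower difference. The authors' deposited table gives a fold change of -6.06 for it. The gene (ENSMUSG00000059552) occupies bases 69580359 to 69591873 of chromosome 11 on GRCm38, plus strand, and the deposited row spans all of it, the deleted and the remaining part. Wrap53, on the opposite strand, begins 103 bases away in the annotation and shares no exonic base with it.

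**Figure D1:**
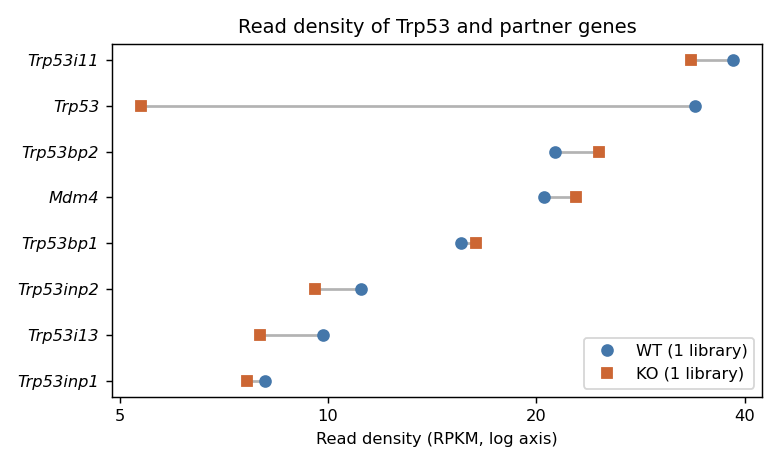
Read density in RPKM, on a log axis, of the 8 genes in the WT library (circles) and the KO library (squares). Trp53 is at 33.9 RPKM in WT against 5.38 RPKM in KO, while the 2 marks of each other gene lie close together.

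A copy of Trp53 elsewhere in the genome was also measured. Trp53-ps is a processed pseudogene on chromosome 17, that is, a reinserted copy of the messenger RNA, and it is not protein-coding. The deposited row covers 141 of its bases. They align without gaps to exon 5 of the 11 exons of a full-length Trp53 transcript, within the coding sequence, with 135 of 141 bases identical (95.7%). The longest run of identical bases is 49. The stretches are shown, from GENCODE M21 transcripts and 5′ to 3′, because the 2 rows share this sequence. Capitals mark the 6 positions that differ.
Trp53-ps, chr17:54420055-54420195, plus strand: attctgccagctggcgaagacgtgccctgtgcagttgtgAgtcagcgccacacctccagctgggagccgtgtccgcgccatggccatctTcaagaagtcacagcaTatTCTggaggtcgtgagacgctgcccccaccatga
Trp53 exon 5, chr11:69588387-69588527, plus strand: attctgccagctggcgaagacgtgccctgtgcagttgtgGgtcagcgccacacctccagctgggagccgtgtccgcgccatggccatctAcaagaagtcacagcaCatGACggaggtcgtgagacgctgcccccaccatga
The pseudogene row had 4.198 RPKM in WT against 0.0828 RPKM in KO. Over 141 bases these densities come to 54 reads in WT and 1 read in KO, for a ratio of 0.0197 (95% exact interval 0.00049 to 0.115). The upper end of that interval lies below the ratio of the Trp53 row, 0.158. How reads that align to both loci were assigned is not given in the sources used here, so these reads cannot be told apart from Trp53 reads.

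**Figure D2:**
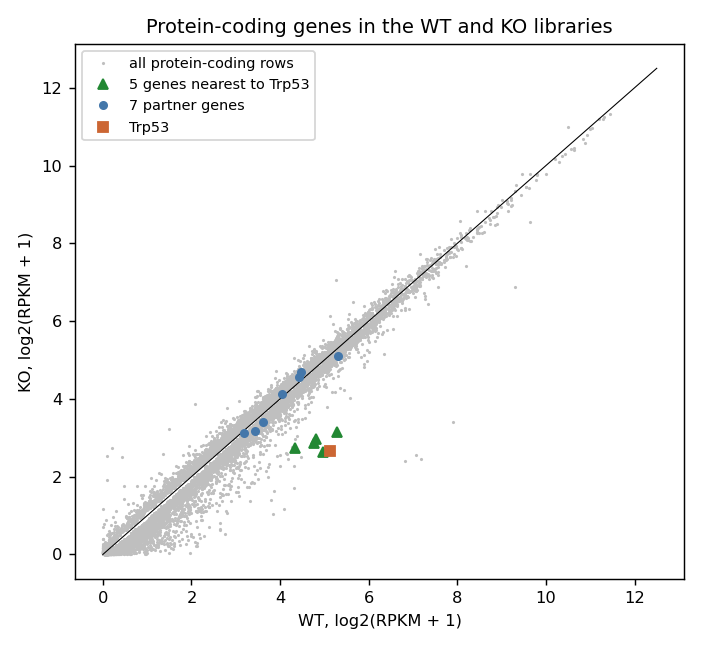
KO against WT density, as log2(RPKM + 1), for 9388 protein-coding rows (grey), with Trp53 (square), the 7 partner genes (circles) and the 5 genes nearest to Trp53 (triangles). The line marks equal density. The partner genes lie along it, and Trp53 lies below it at a difference of -2.45.

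The 5 genes nearest to Trp53 in the 2 libraries were Ly6a, Col3a1, Acp1, Col1a1 and Igfbp7, by Euclidean distance on the log2(RPKM + 1) scale over the 2 libraries. Ly6a, which encodes the surface protein Sca-1, had 30.4 RPKM in WT against 5.25 RPKM in KO, at a distance of 0.157. Col3a1 and Col1a1, fibrillar collagens of connective tissue, were at distances of 0.417 and 0.493. Col3a1 was at 26.1 and 6.32 RPKM and Col1a1 at 37.8 and 7.82 RPKM in WT and KO. Acp1, a small phosphatase, lay at 0.424, with 27.1 and 6.78 RPKM, and Igfbp7, a secreted binding protein, at 0.789, with 19.2 and 5.67 RPKM. With only 2 libraries this likeness rests on level and difference alone. Col3a1 and Col1a1 are also stromal markers, and such markers were lower in the same library.

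Markers of other cells that the sort could hold were lower in KO as Trp53 was. Of 57 listed markers of erythroid, leukocyte, endothelial, stromal, ureteric bud and differentiating nephron cells, 55 were lower in KO. Of all protein-coding rows, 63.7% were lower. The summed density of 12 stromal markers was 302 RPKM in WT against 137 RPKM in KO. The densest were Tcf21 (79.5 and 51.9) and Foxd1 (63.7 and 43.1). On the log2(RPKM + 1) scale 11 of the 12 were at least 1.5-fold lower, where 5.6% of all rows were. Their differences ranged from -2.14 to -0.55, and the smallest in size was that of Foxd1. The 9 erythroid markers summed to 631 and 23.9 RPKM, nearly all of it globin such as Hbb-b1 (237 and 9.69) and Hbb-b2 (145 and 4.45), whose copies share reads. The 10 leukocyte markers summed to 17.04 and 2.77 RPKM, with C1qb at 4.25 and 0.644 and C1qa at 2.71 and 0.382. The 10 endothelial markers summed to 18.1 and 7.12 RPKM, with Plvap at 10.7 and 4.98 and Cdh5 at 1.82 and 0.313. The 9 ureteric bud markers summed to 19.7 and 10.3 RPKM, with Krt8 at 5.41 and 1.88 and Krt18 at 4.89 and 2.94. The 7 nephron epithelium markers summed to 43.9 and 33.1 RPKM, and of these Jag1 (10.4 and 11.4) and Cdh6 (8.71 and 9.76) were higher in KO, although an adjustment for base composition (GC) and gene length put Cdh6 at -0.092. No listed marker was at 0 in either library. Nephron progenitor markers were present in both libraries, with 12 of 13 listed. Of these, 6 were higher and 6 lower in KO, where 36.3% and 63.7% of all rows were. Six2 was at 482 and 509 RPKM and Sall1 at 184 and 211 RPKM, while Osr1 was at 69.2 and 52.95 RPKM and Cited1 at 23.6 and 16.1 RPKM. In bulk RNA, fewer cells of a type and less RNA per cell cannot be told apart, and the part of these cells in the Trp53 result, and in that of the p53 targets described below, was not tested.

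The other 7 members all lay within 1.5-fold. Their ratios of KO to WT ranged from 0.811 to 1.16 and their log2 differences from -0.27 to 0.20. No member's counting interval holds a ratio of 1. Rows were kept by the authors' p-value on the same 2 libraries, so this was largely set by that selection and gives no support to small differences. With Trp53, 1 of 8 members was at least 1.5-fold lower, where 5.6% of all protein-coding rows were, and none was at least 1.5-fold higher, where 0.639% were. The single lower member is the deleted gene. In direction, 5 of 8 were lower in KO, where 63.7% of all rows were, and 3 were higher, where 36.3% were. The median of all rows was itself -0.11, and relative to it 4 members lay above and 4 below.

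**Figure D3:**
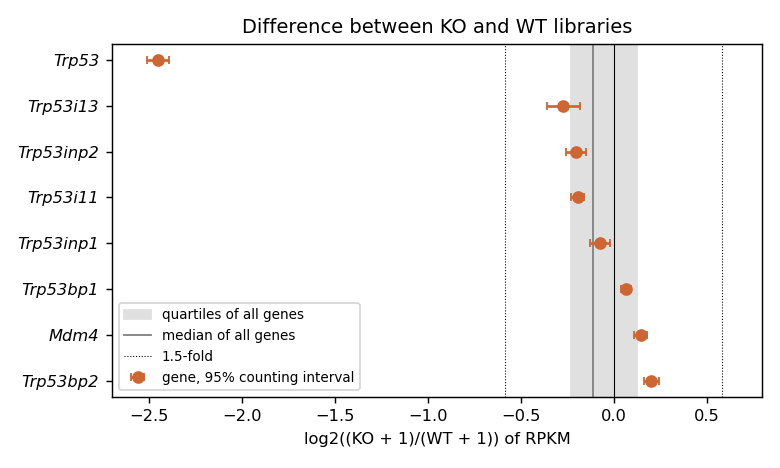
Log2 difference of KO from WT for each of the 8 genes, with 95% counting intervals (bars), the median and quartiles of all protein-coding rows (grey) and 1.5-fold lines (dotted). Trp53 lies at -2.45, and the 7 partner genes lie between -0.27 and 0.20, inside the dotted lines.

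Mdm4, the inhibitor of p53 that binds its activation domain, had 20.5 RPKM in WT against 22.8 RPKM in KO. The KO density was 1.11 times the WT density (95% exact interval 1.08 to 1.14). Its log2 difference was 0.14 and 0.26 relative to the median of all rows, but -0.12 with the GC and length adjustment, so its direction depends on that step. The exons of Mdm4 have 43.3% GC, against a median of 50.1% over all rows.

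The binding proteins Trp53bp1 and Trp53bp2 were slightly higher in KO, Trp53bp1 not with the GC and length adjustment. Trp53bp1 encodes 53BP1, a chromatin reader that gathers at DNA breaks and steers them toward end joining. It had 15.6 RPKM in WT against 16.4 RPKM in KO, for a ratio of 1.05 (95% exact interval 1.03 to 1.07). Its log2 difference of 0.068 became -0.13 with the GC and length adjustment. In the annotation Trp53bp1 shares 2130 exonic bases with Tubgcp4 on the opposite strand, and without a stated strand reads there could belong to either gene.

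Trp53bp2 encodes ASPP2, a protein that binds p53 and steers it toward death genes. It had 21.3 RPKM in WT against 24.6 RPKM in KO, for a ratio of 1.16 (95% exact interval 1.12 to 1.19). This was the highest ratio of the set, and 86.0% of all protein-coding rows had a lower difference. Trp53bp2 was higher in KO in all 6 settings tried, from 0.18 with a pseudocount of 4 to 0.31 when centred on the median of all rows.

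The genes named as p53-inducible were slightly lower in KO, Trp53inp1 not when centred on the median of all rows. Trp53i11, a membrane protein gene, had the highest density of the set in WT, 38.5 RPKM, and was at 33.5 RPKM in KO. The ratio was 0.870 (95% exact interval 0.848 to 0.893). Relative to the median of all rows its log2 difference of -0.19 was -0.082, and 31.0% of all rows were lower still.

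Trp53i13 had 9.83 RPKM in WT against 7.98 RPKM in KO, for a ratio of 0.811 (95% exact interval 0.758 to 0.869). It had the lowest ratio after Trp53 itself, with a log2 difference of -0.27, or -0.16 relative to the median of all rows. Its exons have the highest GC content of the set, 63.2%, and the difference was -0.17 with the GC and length adjustment. It shares 328 exonic bases with Abhd15 on the opposite strand.

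Trp53inp1 and Trp53inp2 encode related proteins that shuttle between nucleus and cytoplasm and take part in autophagy. Trp53inp2 had 11.2 RPKM in WT against 9.58 RPKM in KO, for a ratio of 0.858 (95% exact interval 0.824 to 0.893). Trp53inp1, also an established p53 target that promotes cell death, had 8.11 RPKM in WT against 7.65 RPKM in KO, for a ratio of 0.944 (95% exact interval 0.905 to 0.984). The log2 difference of Trp53inp1 was -0.074 as measured, 0.038 when centred on the median of all rows and -0.36 with the GC and length adjustment. That of Trp53inp2 was -0.20, -0.089 and -0.18 in the same order, so which of the pair lay lower depends on that adjustment. Trp53inp1 has the lowest GC content of the set, 38.8%. Its size and direction therefore vary with the scaling more than its counting error.

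**Figure D4:**
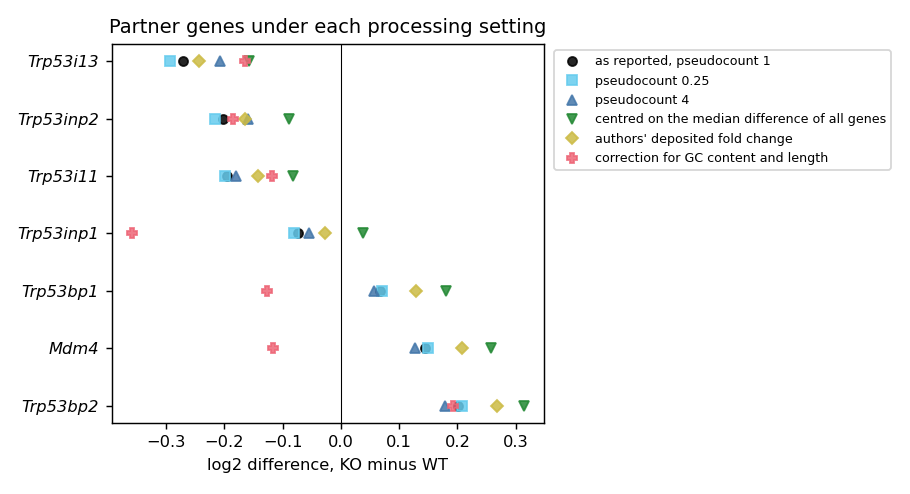
Log2 difference of KO from WT for the 7 partner genes under each of 6 settings (marks). Trp53i11, Trp53i13 and Trp53inp2 stay below 0 and Trp53bp2 above 0 in all of them, while Mdm4, Trp53bp1 and Trp53inp1 cross 0 in 1 setting each.

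Across the 6 settings, 4 members kept a lower density in KO (Trp53, Trp53i11, Trp53i13 and Trp53inp2), 1 a higher density (Trp53bp2), and 3 changed sign (Mdm4, Trp53bp1 and Trp53inp1). No partner gene reached 1.5-fold in any of them. All 8 members lay above the median density of the table, 7.29 RPKM, in the mean of the 2 libraries. Ordered by WT density, Trp53i11 (38.5 RPKM) came first and Trp53 (33.9) next, then Trp53bp2 (21.3), Mdm4 (20.5), Trp53bp1 (15.6), Trp53inp2 (11.2), Trp53i13 (9.83) and Trp53inp1 (8.11). In KO, Trp53 came last of the set. The spread between samples that would say which neighbours differ was not measured, since each group has 1 library.

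The members share annotations, but the genes were chosen by names tied to p53, so shared terms of this kind are built into the choice. Only a few chosen terms were looked up. In the gene ontology terms of the deposited table, 6 of 8 are placed in the nucleus, against 27.5% of all protein-coding rows. The apoptotic process term is held by 4 of 8 (Mdm4, Trp53, Trp53bp2 and Trp53inp1), against 3.12% of all. PML bodies, nuclear granules tied to p53 control, are listed for Trp53, Trp53inp1 and Trp53inp2, against 0.511% of all. Damaged DNA binding is listed for Trp53 and Trp53bp1, against 0.192% of all. The broad term protein binding is held by 6 of 8, against 49.8% of all. By position, 3 of 8 lie on chromosome 2 (Trp53bp1, Trp53i11 and Trp53inp2), which holds 7.70% of all protein-coding rows.

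The p53 motif was searched in promoters, because p53 acts through it and its gene was deleted. The motif is the p53 decamer (the p53 consensus response element repeats it), which reads the same on both strands, in the 300 bases from RefSeq on GRCm38.p6 that surround each start site. It was present without mismatch in a promoter of 9.55% of 27025 genes. Of the 8 members, 7 had a promoter entry (Trp53inp1 did not) and 1 held the decamer, Trp53 itself. Among the p53 target genes described below, 22 of 29 had an entry and 10 held it, of which 8 were lower and 2 higher in KO. Of all 29 targets, 25 were lower and 4 higher, and of all protein-coding rows 63.7% were lower and 36.3% higher. Whether the decamer goes with lower density was not tested. Stretches around the decamer, with the decamer in capitals, are shown for Trp53, for the targets Cdkn1a and Ccng1, which were lower in KO, and for Gadd45a, a growth arrest gene that was higher (7.57 and 8.42 RPKM).
Trp53, chr11:69580264-69580313, plus strand: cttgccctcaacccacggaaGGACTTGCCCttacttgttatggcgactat
Cdkn1a, chr17:29090886-29090957, plus strand: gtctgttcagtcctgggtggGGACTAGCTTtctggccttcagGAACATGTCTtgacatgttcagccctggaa
Ccng1, chr11:40755442-40755491, minus strand: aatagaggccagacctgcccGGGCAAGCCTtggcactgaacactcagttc
Gadd45a, chr6:67037418-67037467, minus strand: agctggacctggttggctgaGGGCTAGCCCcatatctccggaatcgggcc
Cdkn1a holds 2 decamers in this stretch and the others 1. A match describes the letters only, and binding of p53 was not measured.

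The wider p53 network was described through 8 lists of 124 names, of which 79 were listed. The other names had no protein-coding row in the selected data, so their differences were not seen. Ppm1d is held by both the p53 target list and the list of genes that set p53 stability, and is counted in each. The 7 lists other than p53 targets held 50 entries. On the log2(RPKM + 1) scale 1 was at least 1.5-fold higher in KO, where 0.639% of all rows were. None was at least 1.5-fold lower on that scale, where 5.6% were. It shrinks differences at low density, and entries such as Ppp1r13b (1.54-fold) and Osgep (1.51-fold) were past 1.5-fold lower in density alone. Cdkn2a was as well, at 0.075 RPKM in WT and 0 RPKM in KO, from about 8 and 0 reads. The kinases that act on p53, Mdm2 or Mdm4 were mostly higher in KO, with 6 of 8 listed higher, where 36.3% of all rows were, and a median log2 difference of 0.22, but -0.0068 with the GC and length adjustment. Chek1, the checkpoint kinase of replication stress, had 4.70 RPKM in WT against 6.48 RPKM in KO. Hipk2, a kinase that phosphorylates p53 to promote death, was at 11.4 and 14.1 RPKM. The log2 difference of Chek1 went from 0.39 to 0.11 with that adjustment and that of Hipk2 from 0.28 to 0.27.

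Of 14 listed ubiquitin ligases, deubiquitinases and Mdm2 binders that set p53 stability, 6 were higher and 8 lower in KO. Of all rows, 36.3% were higher and 63.7% lower, so these counts lie near the shares of all rows. The list median was -0.086, which became 0.027 when centred on the median of all rows, with 8 genes above that median and 6 below. Usp2, a deubiquitinase of Mdm2, had 2.079 RPKM in WT against 1.58 RPKM in KO, and Yy1, a factor that helps Mdm2 bind p53, was at 37.0 and 43.5 RPKM. Enzymes that acetylate or methylate p53, or reverse this, were 6 higher and 4 lower of 10, where 36.3% and 63.7% of all rows were. Their median was 0.092, which was 0.014 with the GC and length adjustment and 0.20 when centred. Among them Sirt1, a deacetylase of p53, was at 8.48 and 11.3 RPKM, and Hdac1, a deacetylase that acts on p53 and histones, at 14.4 and 11.5 RPKM. With that adjustment the log2 difference of Sirt1 went from 0.37 to 0.19. Sirt1 and Hdac1 differed in opposite directions.

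Of 11 listed proteins that act with 53BP1 at DNA breaks, 6 were higher and 5 lower, where 36.3% and 63.7% of all rows were. Their median was 0.095, or -0.057 with the GC and length adjustment. Rif1, which 53BP1 recruits to block resection of the break, had 10.7 RPKM in WT against 16.8 RPKM in KO, for a ratio of 1.57 (95% exact interval 1.53 to 1.61). It was the entry past 1.5-fold on the log2(RPKM + 1) scale, with a log2 difference of 0.60. With the GC and length adjustment this was 0.30, below 1.5-fold. Of the ASPP relatives of Trp53bp2 and the p53 family, Ppp1r13b (ASPP1) was listed, at 3.94 and 2.56 RPKM. Trp53bp2 and Ppp1r13b thus lay on opposite sides of equal density. Of the KEOPS complex, which modifies transfer RNA, Osgep was listed, at 2.18 and 1.45 RPKM.

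Of the autophagy partners of Trp53inp1 and Trp53inp2, 4 of 5 were lower in KO, where 63.7% of all rows were, with a median of -0.16, or -0.045 when centred on the median of all rows. Map1lc3a, an LC3 protein of the autophagosome membrane, had 40.6 RPKM in WT against 30.03 RPKM in KO, and Gabarapl1, of the same family, at 51.5 and 41.6 RPKM. When centred these 2 were at -0.31 and -0.19. Of the 5, 3 lay below the median of all rows and 2 above.

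**Figure D5:**
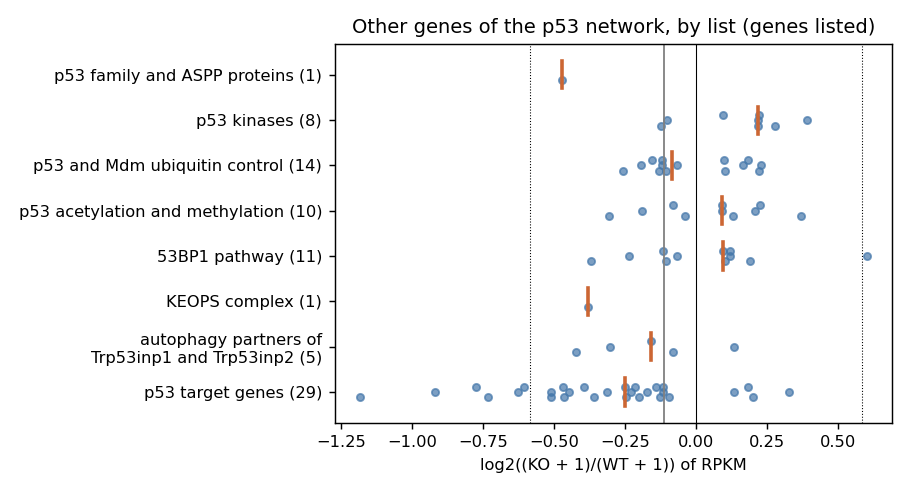
Log2 difference of KO from WT for genes of 8 lists of the p53 network (points; number listed in parentheses), with each list's median (bars), the median of all protein-coding rows (grey line) and 1.5-fold (dotted). The p53 target list extends furthest to the left, to -1.18.

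Genes known to be induced by p53 had a lower median than the 7 partner genes, -0.25 against -0.074, with no test of that difference. Of 38 target names 29 were listed, and the others could not be followed. Of the 29 listed, 25 were lower in KO, where 63.7% of all rows were, and 4 were higher, where 36.3% were. On the log2(RPKM + 1) scale 6 were at least 1.5-fold lower, where 5.6% of all rows were, and none was 1.5-fold higher. That scale shrinks differences at low density. The gene at the target median, 9030617O03Rik, had 0.294 RPKM in WT against 0.0869 RPKM in KO and fell short of 1.5-fold on it. The median moved with the pseudocount and was -0.49 with 0.25, -0.16 with 4 and -0.45 on the authors' fold change, and -0.14 when centred on all rows. Of the markers of other cells described above, 55 of 57 were lower in the same library, against 63.7% of all rows, with a stromal median of -1.52. Phlda3, which restrains Akt signalling, had 79.8 RPKM in WT against 34.6 RPKM in KO, for a ratio of 0.433 (95% exact interval 0.418 to 0.448). Eda2r, a death receptor of the TNF receptor family, was at 1.35 and 0.242 RPKM, a ratio of 0.179 (0.147 to 0.217). Cdkn1a, which encodes the cyclin kinase inhibitor p21, had 22.5 and 12.7 RPKM, a ratio of 0.566 (0.545 to 0.589), and Ccng1, cyclin G1, at 15.3 and 8.79 RPKM. These 4 are among the lower of the list, and others lay nearer to equal density, such as Bax, a death effector, at 37.6 and 32.3 RPKM, a ratio of 0.859. Plk2, a kinase, was the highest, at 17.7 and 22.5 RPKM, a ratio of 1.27.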

How the data were processed

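RNA from 1 WT and 1 KO library was sequenced. Per the submitters' processing notes, CASAVA 1.8, Novoalign 2.08.02 and FastQC and the builds GRCm38 and mm10 are named, with no role given. How reads were counted, and on which strand, is not given in the sources used here. The authors deposited, per the file headers, a read density per library, a p-value and a corrected p-value, an absolute fold change (a ratio) and a signed fold change (a score). The deposited density was read as RPKM from the values: of 171 genes at 0 in KO only, 150 had fold changes on whole multiples of a step (within 0.01 reads), and of 75 at 0 in WT only, 70 did. With GENCODE M21 exon lengths inside the deposited coordinates, these steps give depths of about 91200000 reads in WT and 85600000 in KO. Exact (Clopper-Pearson) 95% intervals use reads estimated from them and cover counting error only. The authors' fold change is the density ratio times 1.04.

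Differences are log2(KO + 1) minus log2(WT + 1), over all 9388 protein-coding rows, with a 1.5-fold size rule and no test. The correction for GC content and length subtracts the median of 10 GC by 4 length bins. All members were named, with listed genes past 1.5-fold (at most 3 per list) or the 2 largest differences, every listed gene of 2 short lists, the 5 genes nearest to Trp53 (predicted genes left out) and the 2 densest genes per marker list. Ccng1, Bax, Plk2, Gadd45a, 9030617O03Rik, Osr1 and Cited1 were named after their values were seen. A ureteric bud marker is not reported here and is left out of the sums and counts. Members and lists were chosen with earlier results of these data known. Measures were tested on simulated data. Python 3.11.15, pandas, scipy and Biopython were used.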

Additional observations from a re-analysis of the deposited data

How the results depend on the processing

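The count of members at least 1.5-fold lower stayed at 1 and the count higher at 0 under pseudocounts of 0.25 and 4, centring on the median, the authors' fold change, the GC and length adjustment, a floor at the median density and a 2-fold rule. The share of protein-coding rows that were lower went from 1.82% with the 2-fold rule to 12.4% with a pseudocount of 0.25 and 19.4% on the authors' fold change. The share higher went from 0.117% with the 2-fold rule to 3.63% on the authors' fold change. The Trp53 difference of -2.45 was -2.60 with a pseudocount of 0.25, -2.02 with 4, -2.34 when centred, -2.60 on the authors' fold change and -2.39 with that adjustment. The median of the 8 members, -0.13, was -0.022 when centred and -0.085 on the authors' fold change. Of 35 differences of the other members under alternatives, 19 lay inside the gene's counting interval and 16 outside. Of 8 lists, 5 had a median below 0, against 7 with the GC and length adjustment, 4 when centred and 3 over the density floor, where fewer lists keep a gene. The cause of the other shifts was not tested. No paired analysis was possible because each group has 1 library. Genes at 0 in a library were left out under the authors' fold change. The spread between animals was not measured.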

Other observations

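Trp53cor1, the long non-coding RNA known as lincRNA-p21 that p53 induces beside Cdkn1a on chromosome 17, was at 0.341 RPKM in WT and 0.0711 RPKM in KO. This is a ratio of 0.208 (95% exact interval 0.123 to 0.333), from about 108 and 21 reads. The annotation places 1645 of its exonic bases on those of AC167363.1 on the opposite strand, and without a stated strand those reads could belong to either.

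The p-values in the authors' deposited table have different floors in the 2 directions. Among rows with lower density in KO the smallest p-value above 0 is 2.22e-16, and among rows with higher density it is 1.4e-45. Trp53i11, with a deposited fold change of -1.10, is listed at 0, while Trp53bp2, with one of 1.20, is listed at 3.59e-22. Ranks by that column therefore do not compare lower with higher genes. In 109 protein-coding rows the density was lower in KO while the deposited fold change was above 1, and no member was among them. The deposited fold change is the density ratio times 1.04, which moves a ratio just below 1 to above 1.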
